A study of Mus musculus with 9 samples.

Results

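Glycosyltransferases of the Golgi that start, branch, extend and cap mucin-type and N-linked glycans were examined in mouse nasal mucosa by gene symbol. Every probe set annotated to a single gene of the Galnt, Gcnt, Mgat, B3galt, B3gnt, B4galt, B4galnt, Fut, St3gal, St6gal, St6galnac or St8sia families was taken, which gave 90 probe sets of 86 genes among 19939 genes with such a probe set. Where a gene had several, the brightest on average stood for it. The genes fell into 12 enzyme classes of 2 to 19 genes, and all values below are log2 expression on Affymetrix Mouse Gene 1.0 ST arrays. The symbol B4galt2 was found only on a probe set shared with another gene and is not reported.

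There were 3 groups of 3 arrays, 1 array per sample, all of BALB/c mice labelled male and of the same labelled age range. The 4-week mice had been given ovalbumin, an allergen of hen egg white, both to sensitise and to challenge them, and were killed 4 weeks after the last challenge. The OVA mice had the same sensitisation and challenge and were killed 2 hours after the last challenge. The control mice received saline at both steps. The labels do not say whether each array came from its own animal, so p-values reflect array-to-array spread that could be technical alone. The comparisons ask what differed after sensitisation and challenge together, and what differed after 4 weeks without allergen. No comparison separates challenge from sensitisation.

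The arrays labelled control went against their labels in sex-linked transcripts. Xist, a transcript of the inactive X chromosome and so of female tissue, averaged 4.33 ± 0.08 in the 4-week arrays, 4.29 ± 0.07 in the OVA arrays and 10.81 ± 0.26 in the arrays labelled control (SD, n = 3 each). The Y-linked gene Eif2s3y averaged 8.25 ± 0.18 in the 4-week arrays, 8.28 ± 0.20 in the OVA arrays and 3.31 ± 0.29 in the arrays labelled control. Treatment and this sex difference therefore cannot be told apart in either comparison with the arrays labelled control, and only 4-week against OVA has the same pattern on both sides. None of the 86 genes lies on a sex chromosome (0 on X or Y). Markers of the labelled tissue were bright, with the mean of 6 mature olfactory neuron markers between 10.38 and 11.08 on every array. Markers of immature olfactory neurons moved with the comparisons against the arrays labelled control. All 6 were higher in the 4-week arrays and 5 in the OVA arrays, and their mean level was 7.74 to 7.87 in the 4-week arrays, 7.72 to 8.03 in the OVA arrays and 6.91 to 6.98 in the arrays labelled control. Of 6 mature olfactory neuron markers 2 were lower in 4-week against the arrays labelled control. Of 6 mast cell markers only Kit was called, higher in the same comparison (limma, adjusted p = 0.0411). The mast cell medians were 0.65 there and 0.77 in OVA against the arrays labelled control. Of 6 neutrophil markers Csf3r was higher in OVA against the arrays labelled control and lower in 4-week against OVA. Single markers of other cells passed as well. The nasal gland gene Bpifb9a was 27.8-fold lower in OVA than in arrays labelled control (adjusted p = 0.0415), the squamous gene Sprr1a was 6.59-fold lower in 4-week than in OVA arrays (0.0422), and the plasma cell gene Jchain was 4.95-fold higher in 4-week than in arrays labelled control (0.00919). The medians of their lists moved far less. In the same comparisons the median log2 change was 0.14 for 8 nasal gland, -0.2 for 6 squamous and 0.12 for 4 B and plasma cell markers. The nasal gland markers ran from -4.80 (Bpifb9a) to 1.62 (Dmbt1). Bpifb9b fell as far as Bpifb9a, with -4.71, and stood at the threshold without a call (limma, adjusted p = 0.05). The squamous markers ran from -2.72 (Sprr1a) to 0.35 (Krt4), with only Krt4 above 0. The B and plasma cell markers were all above 0, from 0.02 (Cd79a) to 2.31 (Jchain). For the neutrophil markers the medians were 0.18 and -0.34 where Csf3r was called. In OVA against the arrays labelled control they ran from -1.01 (S100a8) to 1.03 (Csf3r). Of 10 goblet and secretory cell markers only Agr2 passed, in 4-week against the arrays labelled control, and their mean level was 7.08 to 7.39 in the 4-week arrays, 7.41 to 7.85 in the OVA arrays and 6.61 to 7.47 in the arrays labelled control. The part of these cells in the results below was not tested, and in bulk tissue fewer cells of a type and less RNA per cell cannot be told apart.

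Mucin-type O-glycosylation begins when a polypeptide GalNAc-transferase places GalNAc on serine or threonine, and galactose and GlcNAc-transferases then build cores, branches and chains. Fucosyltransferases and sialyltransferases cap the chain ends, which carry blood group antigens and the ligands of selectins and sialic acid-binding lectins. These sugars make up much of the mass of the mucins that the nose secretes, and the same terminal enzymes act on N-glycans and glycolipids of epithelium and olfactory neurons.

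In 4-week against OVA arrays, 5 of the 86 genes passed an adjusted p of 0.05 in limma, a share of 5.81%, where 6.33% of all 23410 probe sets tested passed (3.81% higher and 2.51% lower). Mgat2 and Mgat3, which add GlcNAc to N-glycans, were higher, and the galactosyltransferases B4galt3 and B4galt5 and the fucosyltransferase Fut2 were lower. After median centring of the arrays the split was 3 higher and 2 lower. In OVA against the arrays labelled control, 2 genes passed, or 2.33%, where 1.30% of all probe sets did (0.782% higher and 0.521% lower). They were B4galnt2 and B4galt5, both higher, and quantile normalization gave 3 higher and 1 lower. In 4-week against the arrays labelled control, 12 genes passed, or 14.0%, where 14.4% of all probe sets did (7.92% higher and 6.45% lower). Of these, 7 were higher (Galnt1, Galnt18, Mgat2, Mgat3, Mgat4a, B4galnt2, St3gal5) and 5 lower (Galnt9, Gcnt7, Mgat5b, B4galt3, B4galnt4), with 10 higher and 2 lower after median centring. In these counts the shares of members called in both 4-week comparisons were near the shares of all probe sets. At an unadjusted p under 0.05 there were 22, 16 and 34 members in 4-week against OVA, OVA against the arrays labelled control and 4-week against the arrays labelled control, where 23.9%, 16.4% and 32.9% of all probe sets passed. The groups did not overlap in 20 members (7 higher, 13 lower) in 4-week against OVA, where 28.1% of all probe sets did so (14.5% higher, 13.7% lower). The number was 19 (15 higher, 4 lower) in OVA against the arrays labelled control, with 21.5% of all probe sets (10.4% higher, 11.1% lower). It was 32 (18 higher, 14 lower) in 4-week against the arrays labelled control, with 35.0% of all probe sets (16.6% higher, 18.4% lower). The median log2 change over the 86 genes was -0.07, 0.02 and -0.03 in these 3 comparisons, beside -0.02, -0.02 and -0.04 over all probe sets.

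Across the 3 comparisons 14 genes were called at least once, from 7 of the 12 classes, and 72 genes were called in none. The share of all probe sets called at least once was not counted, so the 14 have no background beside them. In 4-week against the arrays labelled control alone, 14.4% of all probe sets were called. The spread between the highest and lowest of the 9 arrays had a median of 0.52 over the 86 genes and went up to 2.39, in B4galnt2, with 11 genes over 1. The plot of the 14 genes by array shows which groups separate.

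**Figure D1:**
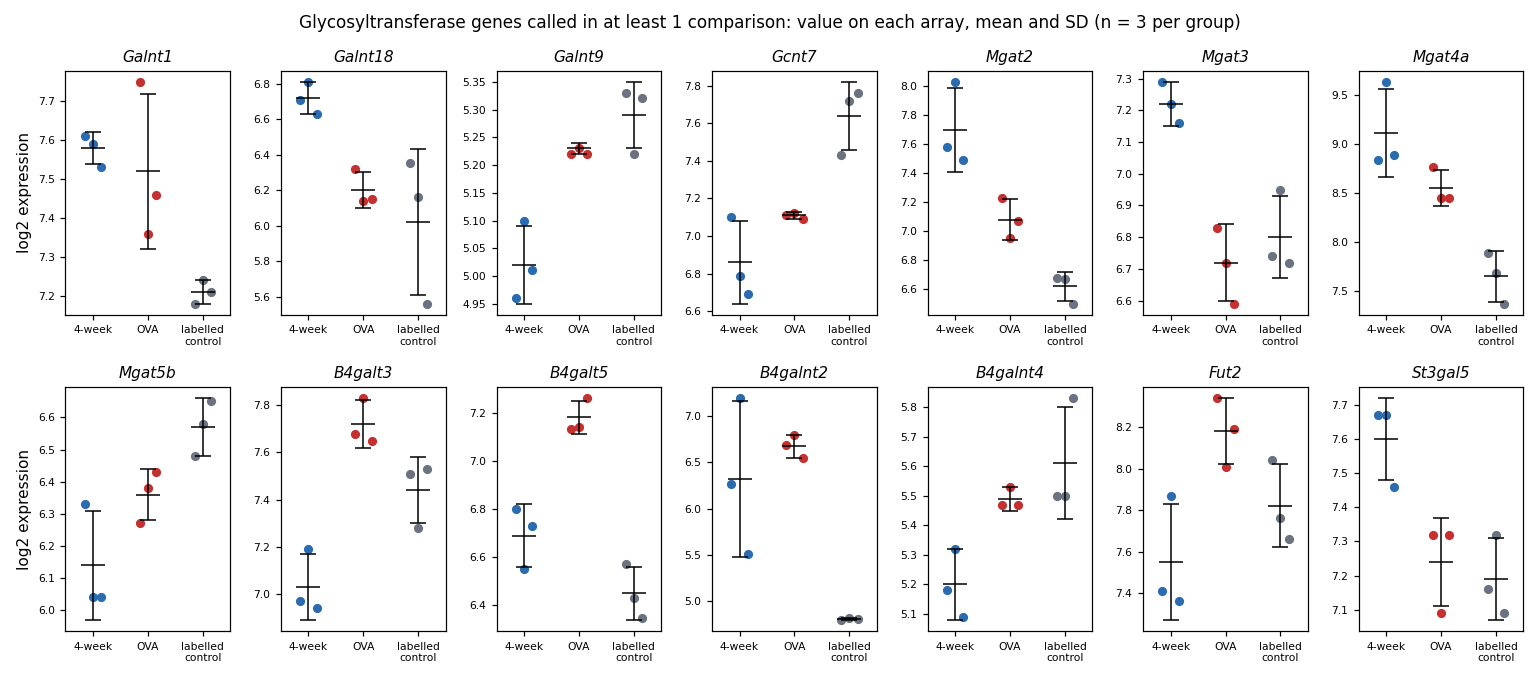
Log2 expression (vertical axis, a separate scale for each gene) of the 14 genes called in at least 1 comparison, on each array of the 4-week, OVA and labelled control groups (points), with the mean and SD (bars, n = 3). B4galnt2 sits between 4.80 and 4.82 on the arrays labelled control and at 5.51 or higher on all others, and B4galt5 is highest on the 3 OVA arrays.

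The promoters of 6 called genes are shown because 4 of them (Mgat2, Mgat4a, Gcnt7, B4galt3) hold the calls that were kept whichever single array was left out and the other 2 (B4galnt2, B4galt5) are the genes called higher in the OVA arrays. Each is the 300 bases from 250 before to 50 after the RefSeq start in GRCm38.p6, written along the gene's own strand. They lie at chr11:95914822-95915121 (B4galnt2, minus strand), chr2:167349129-167349428 (B4galt5, minus), chr1:171270078-171270377 (B4galt3, plus), chr12:69183908-69184207 (Mgat2, plus), chr1:37540967-37541266 (Mgat4a, minus, the first of 2 starts listed) and chr2:172458547-172458846 (Gcnt7, minus). Capitals mark matches, on either strand, to any of 6 motifs: the GC box GGGCGG, the cAMP response element TGACGTCA, the STAT motif TTCNNNGAA, the STAT6 motif (the same ends with 1 more base between them), the AP-1 motif TGANTCA and the E-box CACGTG.
B4galnt2: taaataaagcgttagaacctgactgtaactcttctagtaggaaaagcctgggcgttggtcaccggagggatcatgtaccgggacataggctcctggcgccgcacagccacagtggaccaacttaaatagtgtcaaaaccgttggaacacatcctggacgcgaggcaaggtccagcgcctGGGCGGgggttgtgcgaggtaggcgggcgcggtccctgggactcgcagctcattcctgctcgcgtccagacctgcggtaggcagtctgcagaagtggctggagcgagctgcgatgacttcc
B4galt5: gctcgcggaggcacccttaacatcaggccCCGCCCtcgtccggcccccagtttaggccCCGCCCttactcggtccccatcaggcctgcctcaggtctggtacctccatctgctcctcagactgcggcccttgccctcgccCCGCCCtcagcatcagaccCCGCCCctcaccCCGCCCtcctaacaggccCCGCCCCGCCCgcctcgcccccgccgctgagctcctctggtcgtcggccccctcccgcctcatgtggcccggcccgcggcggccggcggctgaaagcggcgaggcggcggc
B4galt3: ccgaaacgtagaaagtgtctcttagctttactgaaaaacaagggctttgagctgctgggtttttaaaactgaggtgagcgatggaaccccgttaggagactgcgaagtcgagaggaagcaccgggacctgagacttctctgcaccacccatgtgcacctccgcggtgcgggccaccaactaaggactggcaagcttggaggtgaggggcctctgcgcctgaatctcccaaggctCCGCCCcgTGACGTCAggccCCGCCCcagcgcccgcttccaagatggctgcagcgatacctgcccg
Mgat2: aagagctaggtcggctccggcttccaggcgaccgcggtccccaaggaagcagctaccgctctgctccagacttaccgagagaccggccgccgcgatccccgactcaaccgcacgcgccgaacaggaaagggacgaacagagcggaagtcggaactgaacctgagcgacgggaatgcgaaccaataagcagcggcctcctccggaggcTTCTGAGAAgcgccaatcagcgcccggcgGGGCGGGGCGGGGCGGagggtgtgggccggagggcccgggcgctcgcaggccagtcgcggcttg
Mgat4a: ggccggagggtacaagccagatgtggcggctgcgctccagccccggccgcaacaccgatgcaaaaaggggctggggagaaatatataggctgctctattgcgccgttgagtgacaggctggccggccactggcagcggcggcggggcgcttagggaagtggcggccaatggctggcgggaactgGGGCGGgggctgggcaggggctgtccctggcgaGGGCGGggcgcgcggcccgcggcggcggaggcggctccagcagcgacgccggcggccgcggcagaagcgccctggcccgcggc
Gcnt7: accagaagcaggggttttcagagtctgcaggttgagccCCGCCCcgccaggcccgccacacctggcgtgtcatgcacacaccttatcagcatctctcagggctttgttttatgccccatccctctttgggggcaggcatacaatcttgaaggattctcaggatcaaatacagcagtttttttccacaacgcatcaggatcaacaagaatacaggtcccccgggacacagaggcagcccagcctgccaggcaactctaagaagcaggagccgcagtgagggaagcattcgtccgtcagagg

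All 6 windows hold a GC box, the motif read by Sp1-type factors, which 35.7% of all 32851 promoter windows of this length hold. B4galt5 has 7 matches to it, Mgat2 has 3, B4galt3 and Mgat4a have 2 each, and B4galnt2 and Gcnt7 have 1 each. Over the 64 of 86 genes with a window listed, taken with 1 window per gene, 62.5% hold a GC box. The share of all windows counts every listed start, so a gene with several starts enters it more than once. B4galt3 has a cAMP response element 8 bases before its start, a motif in 1.79% of all windows and 3.12% of the 64 genes. Mgat2 has a STAT match 43 bases before its start, a motif in 8.30% of all windows and 9.38% of the 64 genes. The letters of the STAT6, AP-1 and E-box motifs were in none of the 6 windows (0 matches each), against 6.95%, 7.81% and 7.15% of all windows.

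Beta-galactosyltransferases of the B4GALT class, which build N-acetyllactosamine and lactosylceramide, had the largest median log2 change of the 12 classes in OVA against the arrays labelled control, 0.39 (0.41 after median centring and 0.36 after quantile normalization). In that comparison 4 of the 6 genes (B4galt1, B4galt3, B4galt5, B4galt6) had every OVA array above every array labelled control, where 10.4% of all probe sets did. B4galt5, a lactosylceramide synthase, stood at 6.80, 6.55 and 6.73 in the 4-week arrays, at 7.13, 7.14 and 7.26 in the OVA arrays and at 6.57, 6.43 and 6.35 in the arrays labelled control. The OVA arrays lay above both other groups with no overlap, while the 4-week arrays overlapped those labelled control. Its log2 change was -0.48 in 4-week against OVA (SE 0.09, adjusted p = 0.0196, limma) and 0.73 in OVA against the arrays labelled control (SE 0.09, adjusted p = 0.0103). In 4-week against the arrays labelled control it was 0.25 and not called (adjusted p = 0.0952, but 0.0453 after median centring). The rise in OVA was not called without control replicate 2 (adjusted p = 0.0538), and the fall at 4 weeks was not called without OVA replicate 2, OVA replicate 3 or 4-week replicate 2 (adjusted p from 0.0533 to 0.0732).

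B4galt3, which galactosylates N-glycans, had the smallest adjusted p of all 86 genes in 4-week against OVA. It stood at 6.97, 7.19 and 6.94 in the 4-week arrays, at 7.68, 7.83 and 7.65 in the OVA arrays and at 7.51, 7.28 and 7.53 in the arrays labelled control. The 4-week arrays were the lowest, below every array of both other groups. B4galt3 was 1.61-fold lower in 4-week than in OVA arrays (log2 change -0.69, SE 0.10, adjusted p = 0.00785), and this call was kept in all 9 fits that left out 1 array. Against the arrays labelled control it was 1.33-fold lower (adjusted p = 0.0285), a call lost without control replicate 1 or 3 or 4-week replicate 1 or 3 (adjusted p from 0.0709 to 0.0838) and after median centring or in a fit of the compared groups alone (adjusted p up to 0.0596).

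The other members of the class were not called. B4galt1, the main N-acetyllactosamine synthase, averaged 8.25 ± 0.14 in the 4-week arrays, 8.52 ± 0.19 in the OVA arrays and 7.91 ± 0.16 in the arrays labelled control. Its log2 change in OVA against the arrays labelled control was 0.60 (SE 0.12, adjusted p = 0.0556), and it passed under several other settings, with adjusted p of 0.0475 after quantile normalization and 0.0396 with dim probe sets left out. B4galt6, the other lactosylceramide synthase, had 0.51 in the same comparison (adjusted p = 0.0773). B4galt4 had -0.03 and B4galt7, which acts on proteoglycan linkers, -0.02.

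The B4GALNT class, which adds GalNAc to chain ends, held the largest change of all 86 genes. B4galnt2, the enzyme of the Sda blood group antigen, stood at 6.26, 7.19 and 5.51 in the 4-week arrays, at 6.68, 6.79 and 6.54 in the OVA arrays and at 4.80, 4.82 and 4.81 in the arrays labelled control. Every 4-week and OVA array lay above every array labelled control, and the 4-week arrays were spread on both sides of the OVA arrays. The arrays labelled control lay under 5.93, the cut of the dimmest 40% of probe sets, where signal over background is unknown. B4galnt2 was 3.63-fold higher in OVA than in arrays labelled control (log2 change 1.86, SE 0.33, adjusted p = 0.0370) and 2.85-fold higher in 4-week than in arrays labelled control (1.51, SE 0.33, adjusted p = 0.0200). Between 4-week and OVA arrays its change of -0.35 was not called (SE 0.33, adjusted p = 0.561) and was 0.05 without 4-week replicate 3. The OVA call was lost without any one of the 3 control or 3 OVA arrays (adjusted p from 0.0879 to 0.125) and without 4-week replicate 1 (0.0544), although the log2 change stayed between 1.80 and 1.92. It was also lost with every row of the table tested (adjusted p = 0.0741). The 4-week call was lost without control replicate 2 or 3 (adjusted p = 0.0598 and 0.0544) and in a fit of the compared groups alone (0.0575).

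B4galnt4, a LacdiNAc synthase, was 1.33-fold lower in 4-week than in arrays labelled control (log2 change -0.41, SE 0.10, adjusted p = 0.0309). It stood at 5.18, 5.32 and 5.09 in the 4-week arrays, at 5.47, 5.53 and 5.47 in the OVA arrays and at 5.50, 5.50 and 5.83 in the arrays labelled control. The 4-week arrays were the lowest of all 9. B4galnt4 lay among the dimmest 40% of probe sets (mean under 5.93), where signal over background is unknown. The call was lost without control replicate 3, 4-week replicate 1 or 4-week replicate 3 (adjusted p from 0.0639 to 0.0761), and under median centring, quantile normalization and the fit of the compared groups (up to 0.105). B4galnt3, the other LacdiNAc synthase, had -0.36 in 4-week against OVA (adjusted p = 0.240), and B4galnt1, which makes the gangliosides GM2 and GD2, had no change larger than 0.07 in size.

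**Figure D2:**
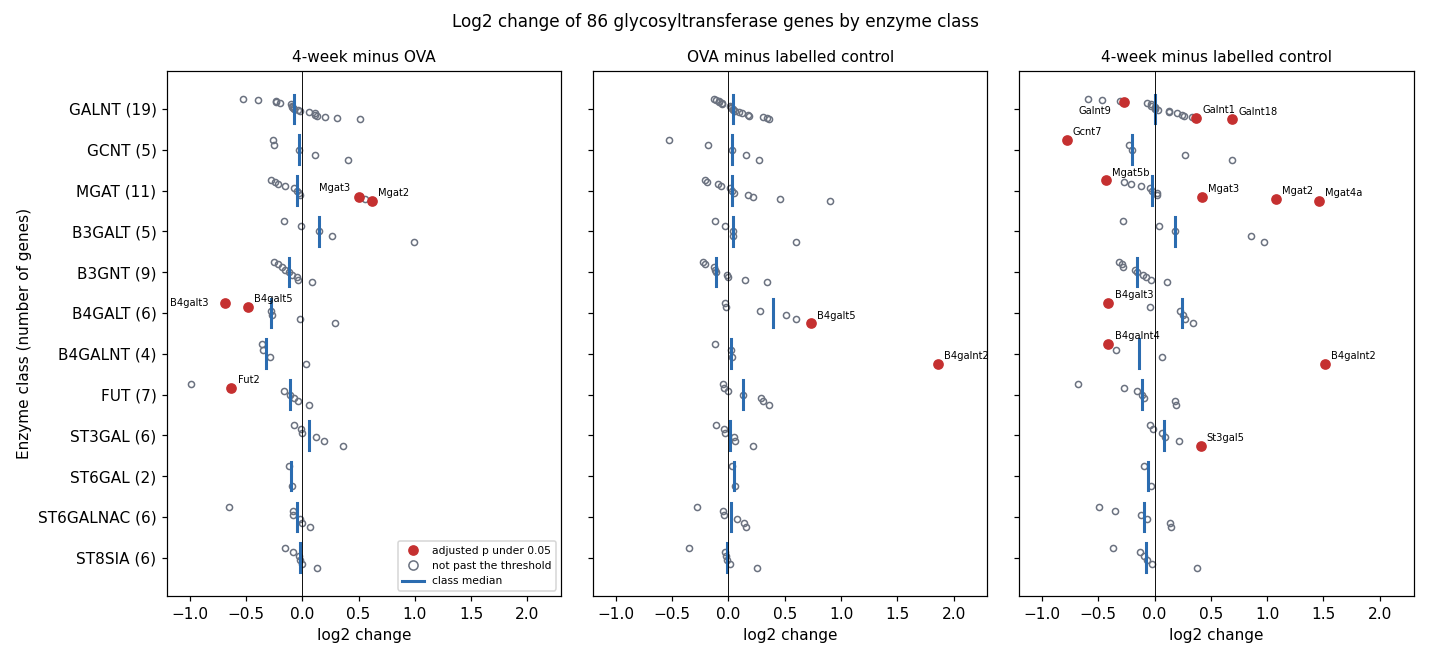
Log2 change (horizontal axis) of the 86 genes by enzyme class (rows, number of genes in brackets) in 3 comparisons, with genes of adjusted p under 0.05 as filled red points with their names, other genes as open points and the class median as a blue bar. The B4GALT median is 0.39 in OVA against the arrays labelled control and -0.27 in 4-week against OVA, while the medians of the 4 sialyltransferase classes stay between -0.11 and 0.08 in all 3.

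GlcNAc-transferases of the MGAT class gave 4 of the 12 calls in 4-week against the arrays labelled control, among 11 genes, where 14.4% of all probe sets were called. Mgat2, which allows a complex N-glycan to branch on both arms, stood at 7.58, 8.03 and 7.49 in the 4-week arrays, at 7.23, 6.95 and 7.07 in the OVA arrays and at 6.68, 6.67 and 6.50 in the arrays labelled control. The 3 groups did not overlap, with the 4-week arrays highest and the arrays labelled control lowest. Mgat2 was 1.53-fold higher in 4-week than in OVA arrays (log2 change 0.62, SE 0.14, adjusted p = 0.0373) and 2.11-fold higher in 4-week than in arrays labelled control (1.08, SE 0.14, adjusted p = 0.00336). The second of these calls was kept whichever array was left out. The first was kept only without control replicate 3 or 4-week replicate 3 and otherwise lost (adjusted p from 0.0507 to 0.115). It was also lost with every row tested or with the compared groups alone (up to 0.0847). OVA against the arrays labelled control gave 0.46 (adjusted p = 0.153).

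Mgat4a, which adds a further branch to the same core, stood at 8.83, 9.63 and 8.88 in the 4-week arrays, at 8.76, 8.45 and 8.45 in the OVA arrays and at 7.89, 7.68 and 7.37 in the arrays labelled control. Again the groups did not overlap and the 4-week arrays were highest. Mgat4a was 2.75-fold higher in 4-week than in arrays labelled control (log2 change 1.46, SE 0.22, adjusted p = 0.00528), kept in all 9 fits without 1 array. It was not called in 4-week against OVA (0.56, adjusted p = 0.161) or in OVA against the arrays labelled control (0.90, adjusted p = 0.0910), though in OVA against the arrays labelled control it passed without 4-week replicate 2 (adjusted p = 0.0356). Its paralog Mgat4b had -0.24, 0.22 and -0.02 in 4-week against OVA, OVA against the arrays labelled control and 4-week against the arrays labelled control, with no call.

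Mgat3 adds the bisecting GlcNAc. It stood at 7.29, 7.22 and 7.16 in the 4-week arrays, at 6.83, 6.72 and 6.59 in the OVA arrays and at 6.74, 6.95 and 6.72 in the arrays labelled control. The 4-week arrays lay above all 6 others, which overlapped each other. Mgat3 was 1.42-fold higher in 4-week than in OVA arrays (log2 change 0.50, SE 0.09, adjusted p = 0.0169) and 1.33-fold higher in 4-week than in arrays labelled control (0.42, SE 0.09, adjusted p = 0.0186). The first call was lost without OVA replicate 2 or 3 or 4-week replicate 1 or 2 (adjusted p from 0.0507 to 0.0617), the second without control replicate 3 or 4-week replicate 1 or 2 (from 0.0521 to 0.0587). Mgat5b, a branching enzyme of O-mannose glycans in brain, was 1.35-fold lower in 4-week than in arrays labelled control (log2 change -0.43, adjusted p = 0.0204). Its values were 6.33, 6.04 and 6.04 in the 4-week arrays, 6.27, 6.38 and 6.43 in the OVA arrays and 6.48, 6.58 and 6.65 in the arrays labelled control. That call was lost without control replicate 2 or 3 or 4-week replicate 2 or 3 (adjusted p from 0.0533 to 0.0720) and with the compared groups alone (0.0502). The class thus held both directions, and its medians were -0.05 in 4-week against OVA, 0.03 in OVA against the arrays labelled control and -0.02 in 4-week against the arrays labelled control. Mgat1, which starts hybrid and complex N-glycans, and Mgat5, which adds the branch extended by polylactosamine, had no change larger than 0.17 in size.

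The 19 GALNT genes, which start mucin-type O-glycans, had medians of -0.07, 0.04 and 0.00 in 4-week against OVA, OVA against the arrays labelled control and 4-week against the arrays labelled control and gave calls in 4-week against the arrays labelled control alone, where 3 passed, or 15.8% beside 14.4% of all probe sets. The other comparisons gave 0 calls in limma, with 5 genes at an unadjusted p under 0.05 in 4-week against OVA (23.9% of all probe sets) and 2 in OVA against the arrays labelled control (16.4%). Galnt18 stood at 6.71, 6.81 and 6.63 in the 4-week arrays, at 6.32, 6.14 and 6.15 in the OVA arrays and at 6.35, 6.16 and 5.56 in the arrays labelled control. The 4-week arrays were the highest, and control replicate 3 stood well below its group. Galnt18 was 1.62-fold higher in 4-week than in arrays labelled control (log2 change 0.69, SE 0.18, adjusted p = 0.0323), and 0.46 without control replicate 3. In 4-week against OVA it had 0.51 (adjusted p = 0.118), which passed without control replicate 3 (0.0200) and with the compared groups alone (0.0330). The call against the arrays labelled control was lost without control replicate 2, OVA replicate 2 or any one of the 4-week arrays (adjusted p from 0.0504 to 0.0990) and with the compared groups alone (0.0759).

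Galnt1, a widely expressed initiator, stood at 7.61, 7.59 and 7.53 in the 4-week arrays, at 7.75, 7.36 and 7.46 in the OVA arrays and at 7.18, 7.24 and 7.21 in the arrays labelled control. All 6 arrays from allergen-treated mice lay above the arrays labelled control. The log2 change in 4-week against the arrays labelled control was 0.37 (SE 0.10, adjusted p = 0.0367), lost without any one of the 3 arrays labelled control or the 3 4-week arrays (adjusted p from 0.0607 to 0.0987) and with every row tested (0.0523). Galnt9 was lower, at 4.96, 5.10 and 5.01 in the 4-week arrays, 5.22, 5.23 and 5.22 in the OVA arrays and 5.33, 5.22 and 5.32 in the arrays labelled control (log2 change in 4-week against the arrays labelled control -0.27, SE 0.06, adjusted p = 0.0266). That call was lost without control replicate 1 or 3 or 4-week replicate 1 or 3 (adjusted p from 0.0559 to 0.0732). It was also lost under median centring, quantile normalization, the replicate block and the fit of the compared groups (up to 0.175). Galnt9 lay among the dimmest 40% of probe sets (mean under 5.93). The other 16 GALNT genes were not called. Galnt2 and Galnt3, which glycosylate many secreted proteins, had no change larger than 0.20 in size in any comparison. The values of Galnt17 were -0.53 in 4-week against OVA and -0.59 in 4-week against the arrays labelled control (adjusted p = 0.125 and 0.0640).

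Among the 5 GCNT genes, which add GlcNAc branches, Gcnt7 was called. It stood at 7.10, 6.79 and 6.69 in the 4-week arrays, at 7.11, 7.12 and 7.09 in the OVA arrays and at 7.43, 7.72 and 7.76 in the arrays labelled control. The arrays labelled control were the highest with no overlap. Gcnt7 was 1.71-fold lower in 4-week than in arrays labelled control (log2 change -0.78, SE 0.12, adjusted p = 0.00592), kept in all 9 fits without 1 array. OVA against the arrays labelled control gave -0.53 (adjusted p = 0.0781), which passed after quantile normalization (adjusted p = 0.0490) and without 4-week replicate 1 (0.0463). Gcnt3, the mucin-type core 2 and core 4 enzyme of secretory epithelium, averaged 6.86 ± 0.24 in the 4-week arrays, 6.45 ± 0.24 in the OVA arrays and 6.18 ± 0.38 in the arrays labelled control. Its change of 0.69 in 4-week against the arrays labelled control missed the threshold (adjusted p = 0.0530) and passed without control replicate 3 (0.90, adjusted p = 0.0249). It also passed after median centring (0.0344), with dim probe sets left out (0.0372), with a trended prior (0.0484) and under the replicate block (0.0314). Gcnt1, the leukocyte core 2 enzyme, had 0.27 in 4-week against the arrays labelled control (adjusted p = 0.132), and Gcnt2, which makes the I antigen, had -0.26 in 4-week against OVA (adjusted p = 0.153).

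**Figure D3:**
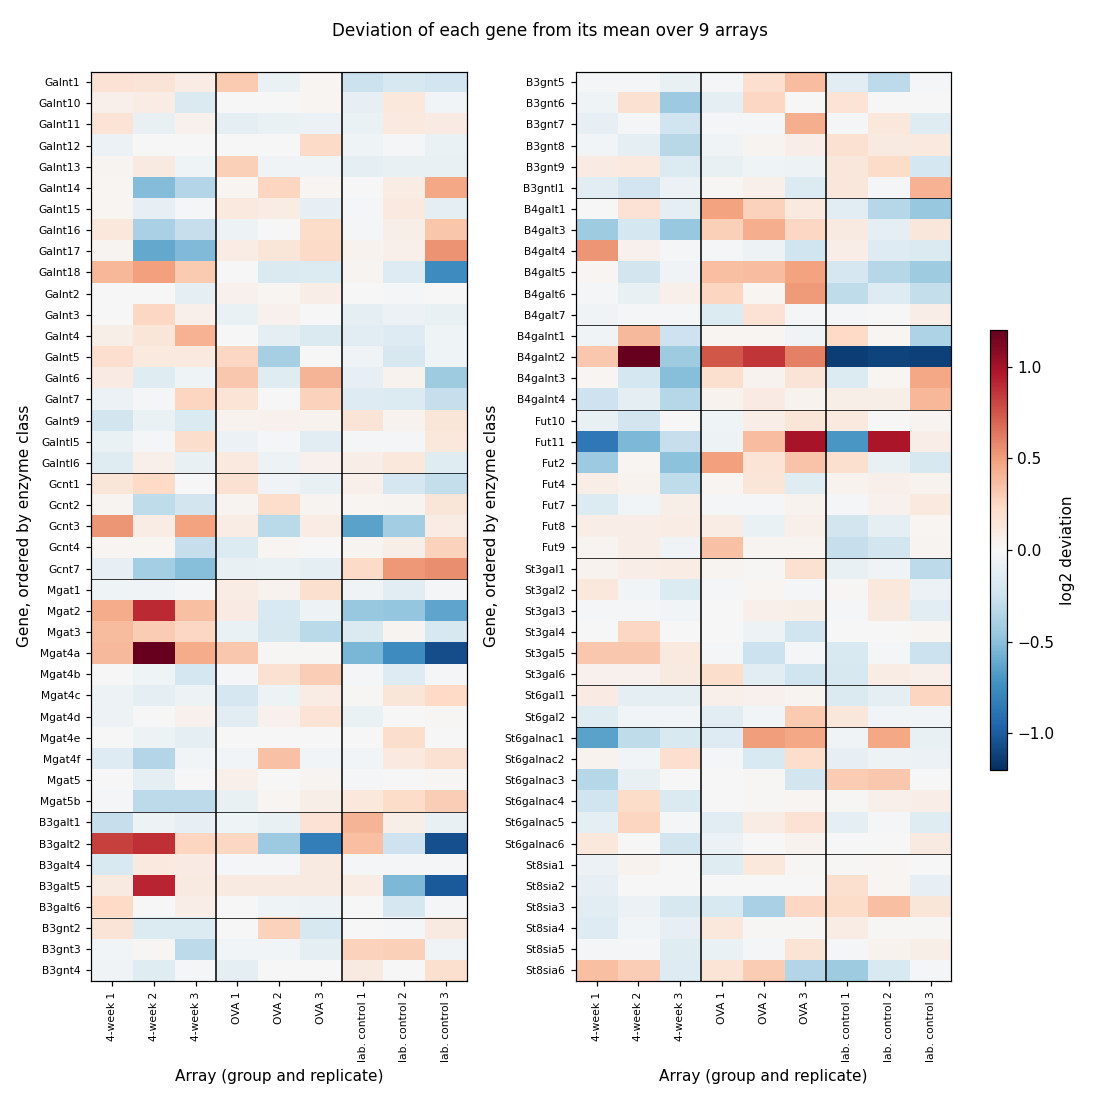
Deviation of each of the 86 genes from its own mean over the 9 arrays (colour, log2 scale, saturating at its ends), with genes in rows by enzyme class (thin lines) and arrays in columns by group (thick lines). B4galnt2, Mgat2 and Mgat4a show the widest blocks by group, while Fut11 runs from 6.80 to 8.48 within the arrays labelled control.

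Fut2, the fucosyltransferase that makes H antigen on mucosal secretions, was the called member of the FUT class. It stood at 7.41, 7.87 and 7.36 in the 4-week arrays, at 8.34, 8.01 and 8.19 in the OVA arrays and at 8.04, 7.76 and 7.66 in the arrays labelled control. The 4-week arrays lay below the OVA arrays and overlapped the arrays labelled control. Fut2 was 1.55-fold lower in 4-week than in OVA arrays (log2 change -0.63, SE 0.15, adjusted p = 0.0468). The call was kept without control replicate 1 or 4-week replicate 2 and lost without any other single array (adjusted p from 0.0543 to 0.133). It was also lost under median centring, the replicate block, every row and the fit of the compared groups (up to 0.0806). Fut11 had a change of -0.99 in the same comparison, with 6.64, 6.96 and 7.22 in the 4-week arrays, 7.44, 7.87 and 8.49 in the OVA arrays and 6.80, 8.48 and 7.58 in the arrays labelled control (adjusted p = 0.175). Its other probe set gave -0.01, so the probe sets of Fut11 disagree. Fut7 and Fut4, which make selectin ligands in leukocytes, and Fut8, which adds core fucose, were not called, and Fut9, a Lewis x enzyme of neural tissue, had 0.29 in OVA against the arrays labelled control (adjusted p = 0.246).

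The B3GALT and B3GNT classes gave no call in limma (0 of 5 and 0 of 9 genes in each comparison). In 4-week against the arrays labelled control 2 and 4 of them had an unadjusted p under 0.05, as did 32.9% of all probe sets. B3galt2 had the largest change of the 2 classes, 0.99 in 4-week against OVA, but varied within groups: it stood at 8.17, 8.23 and 7.61 in the 4-week arrays, at 7.60, 6.91 and 6.52 in the OVA arrays and at 7.71, 7.10 and 6.29 in the arrays labelled control (adjusted p = 0.149, and 0.0239 under the replicate block). B3galt5, which makes type 1 chains of epithelia, had 0.86 in 4-week against the arrays labelled control (adjusted p = 0.0705), and passed without control replicate 1 (1.15, adjusted p = 0.0272). B3galt6, which acts on proteoglycan linkers, had 0.18 there (adjusted p = 0.168). The same value, 4.63, was listed for B3galt5 on 5 arrays. Of the 86 genes, 32 (37.2%) had a value shared by 3 or more arrays, as did 27.7% of all probe sets tested, so for some members replicates did not vary. Of the 9 B3GNT genes, 8 had a change below 0 in 4-week against OVA (6 after median centring or quantile normalization) and 8 in 4-week against the arrays labelled control (7 after median centring). In these comparisons 12955 and 13449 of all 23410 probe sets were below 0, as were 62 and 50 of the 86 genes. Other classes leaned the same way on the deposited values. In 4-week against OVA 6 of 7 FUT genes were below 0, and in both comparisons 5 of 6 ST8SIA genes were. The B3GNT medians were -0.12, -0.11 and -0.16 in 4-week against OVA, OVA against the arrays labelled control and 4-week against the arrays labelled control. The B3GNT change above 0 was that of B3gnt9 in 4-week against OVA and that of B3gnt5, the lactotriaosylceramide synthase of glycolipids, in 4-week against the arrays labelled control. B3gnt5 had 0.34 in OVA against the arrays labelled control (adjusted p = 0.178), B3gntl1 had -0.32 in 4-week against the arrays labelled control (adjusted p = 0.0936), and B3gnt8, a partner of the polylactosamine enzyme B3gnt2, had -0.29 in 4-week against the arrays labelled control (adjusted p = 0.0534), which passed with dim probe sets left out (0.0364) and without 4-week replicate 1 (0.0401).

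Sialyltransferases, 20 genes in 4 classes, gave 1 call, in 4-week against the arrays labelled control, where 14.4% of all probe sets were called. St3gal5, the GM3 synthase that opens ganglioside synthesis, stood at 7.67, 7.67 and 7.46 in the 4-week arrays, at 7.32, 7.09 and 7.32 in the OVA arrays and at 7.16, 7.32 and 7.09 in the arrays labelled control. The 4-week arrays lay above all 6 others. St3gal5 was 1.33-fold higher in 4-week than in arrays labelled control (log2 change 0.41, SE 0.10, adjusted p = 0.0273), a call lost without control replicate 1 or 3 or 4-week replicate 1 or 2 (adjusted p from 0.0644 to 0.0891). In 4-week against OVA it had 0.36 (adjusted p = 0.0652, and 0.0400 with dim probe sets left out). The other 19 sialyltransferases were not called in any comparison. St3gal4 had 0.19 in 4-week against OVA (adjusted p = 0.252) and St3gal1, which caps core 1, 0.22 in OVA against the arrays labelled control (adjusted p = 0.246). The other probe set of St3gal1 gave 0.02 there, and -0.18 against 0.22 in 4-week against the arrays labelled control, so its probe sets disagree. St6gal1, which caps N-glycans, had no change larger than 0.09 in size.

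St6galnac1, the sialyl-Tn enzyme of mucins, averaged 4.66 ± 0.24 in the 4-week arrays, 5.31 ± 0.37 in the OVA arrays and 5.15 ± 0.30 in the arrays labelled control. Its change of -0.65 in 4-week against OVA was not called (adjusted p = 0.108) and passed without OVA replicate 1 (-0.86, adjusted p = 0.0467) and under the replicate block (0.0446). St6galnac2 had 0.15 and St6galnac3 -0.35 in 4-week against the arrays labelled control (adjusted p = 0.348 and 0.0861). Of the ST8SIA class, which builds oligosialic and polysialic acid, St8sia3 had -0.37 in the same comparison (adjusted p = 0.115), and passed without OVA replicate 3 (0.0327) and with the compared groups alone (0.0392). St8sia6 had 0.38 there (adjusted p = 0.215). St8sia2 and St8sia4, the polysialic acid synthases of neural cells, had no change larger than 0.15 in size in any comparison. St6gal2 had -0.12 in 4-week against OVA (adjusted p = 0.554).

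**Figure D4:**
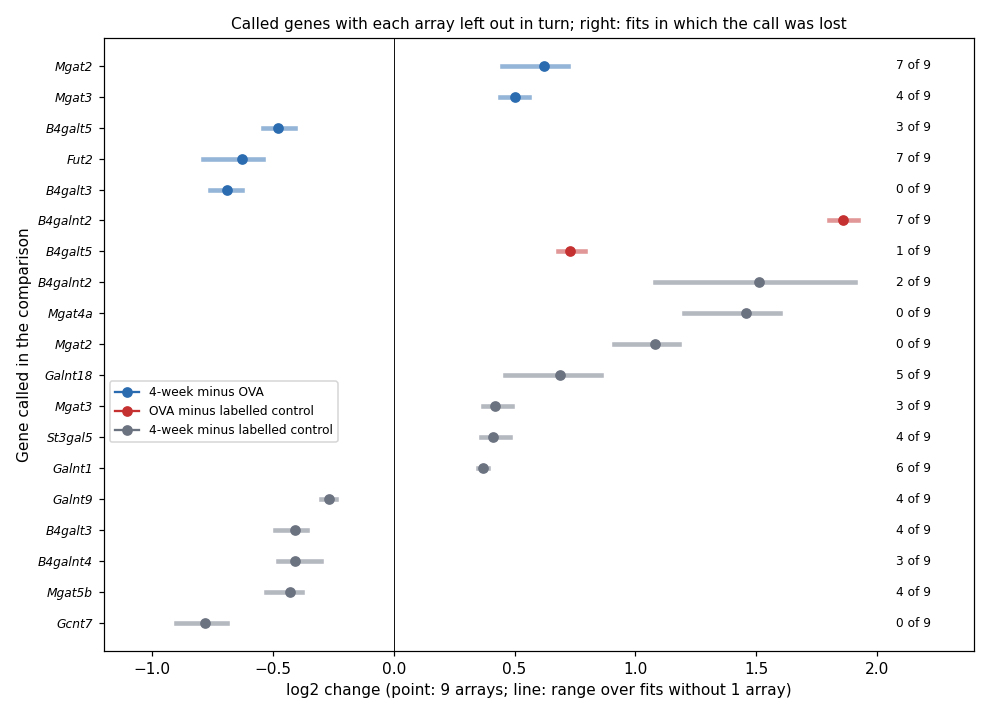
Log2 change (horizontal axis) of each called gene in its comparison (colour), as the value over 9 arrays (point) and the range over the 9 fits that each left out 1 array (line), with the number of those fits in which the adjusted p was no longer under 0.05 at the right. Of the 19 calls, 4 were lost in 0 fits (B4galt3 in 4-week against OVA, and Mgat4a, Mgat2 and Gcnt7 in 4-week against the arrays labelled control) and no line crosses 0.

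Of 52 other genes of the pathway that were measured (sugar nucleotide supply, transport, core 1 synthesis, sulfation, sialidases, related transferases, mucins and lectins), 2 passed in 4-week against OVA, 0 in OVA against the arrays labelled control in limma (13 at an unadjusted p under 0.05) and 7 in 4-week against the arrays labelled control. These are shares of 3.85%, 0.00% and 13.5%, where 6.33%, 1.30% and 14.4% of all probe sets passed, so the pathway genes were called no more often than probe sets in general. C1galt1, which makes core 1 on the GalNAc placed by GALNT enzymes, stood at 8.63, 9.04 and 8.66 in the 4-week arrays, at 8.86, 8.38 and 8.42 in the OVA arrays and at 7.95, 7.78 and 7.78 in the arrays labelled control. All 6 arrays from allergen-treated mice lay above the arrays labelled control. C1galt1 was 1.92-fold higher in 4-week than in arrays labelled control (log2 change 0.94, SE 0.15, adjusted p = 0.00666) and had 0.72 in OVA against the arrays labelled control (adjusted p = 0.0635). Of 13 sugar nucleotide genes, Ugp2, which makes UDP-glucose, was 1.54-fold higher in 4-week than in OVA arrays (adjusted p = 0.0114) and 1.45-fold higher in 4-week than in arrays labelled control (0.0111). Gnpnat1, of UDP-GlcNAc synthesis, was 1.43-fold higher in 4-week than in arrays labelled control (adjusted p = 0.00657). The calls of C1galt1, Ugp2 and Gnpnat1 were kept in all 9 fits without 1 array.

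Other called partners were less stable. Gmds, of GDP-fucose synthesis, was 1.38-fold higher in 4-week than in arrays labelled control (adjusted p = 0.0499). Slc35a3, the UDP-GlcNAc transporter, was 1.44-fold higher there (adjusted p = 0.0344), and the X-linked UDP-galactose transporter Slc35a2 was 1.35-fold lower in 4-week than in OVA arrays (adjusted p = 0.0409). The sulfotransferases Gal3st1 and Gal3st4, of 7 measured, were 1.21-fold and 1.35-fold lower in 4-week than in arrays labelled control (adjusted p = 0.0434 and 0.0493). Both lay under 5.93, the cut of the dimmest 40% of probe sets, on every array, so their signal over background is unknown. These 5 calls were lost in 6 to 8 of the 9 fits without 1 array, with adjusted p up to 0.139, in Gmds. They were also lost in 3 to 5 of the other settings each, among them the fit of the compared groups and the test of every row (adjusted p up to 0.168, in Gal3st1). None of 8 mucin genes, 6 sialidase and esterase genes, 6 related transferases or 6 selectin and lectin genes was called in any comparison (limma, 0 each). Muc1, a transmembrane mucin, had 1.12 in OVA against the arrays labelled control, with 9.57, 9.21 and 9.33 in the OVA arrays and 8.94, 8.32 and 7.48 in the arrays labelled control (adjusted p = 0.116). In the same comparison Gfpt1, which starts UDP-GlcNAc synthesis, had 0.48, Uap1, which ends it, 0.29 and A4galt, the Gb3 synthase, 0.41, none of them called (adjusted p from 0.0843 to 0.121).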

How the data were processed

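Per the labels' protocols, RNA of nasal mucosa was hybridised after whole-transcript labelling, and each sample has 1 array. The authors made the deposited log2 values with RMA, per the submitters' processing notes. The sources used here do not give its software or version, and the log2 scale was read from values of 1.63 to 13.8. No detection calls were used, so signal over background is unknown, and the number of arrays limits precision. Of 35556 rows, 23410 had a gene symbol in the platform annotation and were tested, 21789 of them with 1 gene. All 86 genes were matched by Entrez number to a RefSeq table of GRCm38.p6, which also gave the promoter windows.

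The model was fitted to all 9 arrays together (limma 3.58.1, R 4.3.3, eBayes defaults), with 1 mean per group, no covariate, two-sided tests and Benjamini-Hochberg adjustment over 23410 probe sets in each comparison, with 6 residual and 2.98 prior degrees of freedom. The members and gene lists were chosen with earlier results of these data known. Genes were named if called in any comparison, with the 3 of smallest p in each class; other members are given by count or, where values illustrate a role or an extreme, were added after their values were seen. Pathway genes were named if called, with 4 more of smallest p. In simulated data with 50 genes changed at each size, 1.5-fold changes were recovered in 70% (4-week against OVA), 62% (OVA against control) and 70% (4-week against control) of cases and 2-fold changes in 92%, 90% and 94%, tested over 23410 probe sets. The simulated noise was normal and independent between arrays and probe sets, with each spread taken from the fit. Spread shared by many probe sets of an array was not simulated, so recovery in the real data can be lower. An uncalled gene can therefore still differ. The mast cell gene Mcpt1, 17.4-fold higher in OVA than in arrays labelled control, was not called (limma, adjusted p = 0.0659). Alternatives were other scalings, filters, probe set rules, variance models, a replicate block and leaving out each array.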

Additional observations from a re-analysis of the deposited data

How the results depend on the processing

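No called change of a named gene turned its direction under any alternative run, and among recomputed values of the named members 1023 kept their direction and side of the threshold, 84 lost a call and 26 gained one. For the called pathway genes 103 values kept their call and 57 lost it. The number of members called in OVA against the arrays labelled control, 2, was 4 after quantile normalization, 1 with every row of the table tested and 0 to 3 without 1 array. In 4-week against OVA, 5 became 3 with every row and 1 to 5 without 1 array, and in 4-week against the arrays labelled control 12 became 7 with the compared groups alone and 5 to 13 without 1 array. The lowest of these came when control replicate 2, OVA replicate 2 or 3, and control replicate 3 were left out, in that order of comparisons. The median change of all members was 0.04 (median centring) and 0.06 (dim probe sets left out, 55 members) in OVA against the arrays labelled control, and 0.00 (quantile) and -0.01 (median centring) in 4-week against OVA. It was 0.00, 0.05 and 0.07 under these 3 settings in 4-week against the arrays labelled control. Without 1 array it ranged from 0.01 to 0.04, from -0.07 to -0.04 and from -0.04 to 0.00. The cause of these shifts was not tested.

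Changes that were not called turned sign in 4 cases: Galnt18 in OVA against the arrays labelled control (-0.05 without control replicate 3, range to 0.34 over the fits without 1 array), and in 4-week against OVA Galnt1 (-0.03 without OVA replicate 2, to 0.17), St6gal2 (0.01 without OVA replicate 3, from -0.21) and B4galnt2 (0.05 without 4-week replicate 3, from -0.78). With the replicate number as a block, the numbers of members called were 3, 6 and 13 in OVA against control, 4-week against OVA and 4-week against control. The numbers were not taken as a pairing, since deviations of same-numbered arrays correlated between -0.0438 and 0.332 and not every array correlated best with its own number. Over all probe sets, 305 calls in OVA against control became 143 with every row and 109 with the compared groups alone, 1481 in 4-week against OVA became 946 with 1 probe set per gene, 948 with the mean of a gene's probe sets and 737 with the compared groups, and 3364 in 4-week against control became 2054 with the compared groups. Without 1 array these counts fell to as few as 63 (control replicate 2 left out), 446 (OVA replicate 3 left out) and 1560 (4-week replicate 2 left out), so the shares of all probe sets called move with single arrays too. Without detection calls, the 31 members among the dimmest 40% of probe sets (mean under 5.93) limit what a missing change can show. The called genes B4galnt4 and Galnt9 are among these 31, so the limit holds for their calls too. B4galnt2 is not among them, but its arrays labelled control, at 4.80 to 4.82, lie under 5.93. The limit therefore holds for its fold values as well.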
